A study of Mus musculus with 22 samples.

Results

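Cardiac fibroblasts taken from mouse hearts 10 days after TAC, read here as transverse aortic constriction, were compared with fibroblasts of sedentary mice. TAC narrows the aorta so that the left ventricle works against a raised pressure. The comparison took every library labelled 10 day TAC (3 libraries) and every fibroblast library labelled sedentary (3 libraries), 6 of the 22 libraries of the series and 6 of its 19 fibroblast libraries. All mice were wild type C57BL/6 males of post natal week 10 to 14, and no transgene or other agent is named for either group. The other fibroblast libraries came from mice 3 days after TAC (3), after 10 days (3) or 4 days (3) of swimming, 5 days after MI, read here as myocardial infarction (2), and 3 days after sham surgery (2), and a further 3 libraries held sedentary cardiomyocytes. No sham group of 10 days was analysed here, so surgery and aortic constriction cannot be told apart at that time. The sources used here give neither how the fibroblasts were isolated nor whether each library came from its own mouse. The p-values below therefore describe the spread among these libraries, which may be technical.

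Cardiac fibroblasts build and repair the collagen and elastic scaffold of the heart. Under pressure overload they are known to multiply, to turn on contractile genes of the myofibroblast and to lay down matrix, a process driven by transforming growth factor beta, stretch and signals from immune cells. The same cells also make chemokines and cytokines, and they answer interferons, metals and oxidants through separate sets of target genes.

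Poly-A RNA was sequenced, and expression is given as FPKM, fragments normalised for transcript length and for the depth of the library. In the 6 libraries FPKM summed to 138408, 154446 and 155181 in 10 day TAC, against 96809, 119382 and 85128 in sedentary fibroblasts. Depth relative to the shallowest library, estimated from the smallest FPKM steps, was 1.49, 1 and 1.4 in 10 day TAC, against 2.01, 1.47 and 2.72 in sedentary fibroblasts. Across the 9425 genes tested, the rank correlation of FPKM between libraries was 0.951 to 0.964 among 10 day TAC libraries, against 0.890 to 0.957 among sedentary libraries, and 0.565 to 0.753 between the groups. Rn45s, the 45S precursor of ribosomal RNA, which carries no poly-A tail of its own, was at 911, 1798 and 6988 FPKM in 10 day TAC, against 171, 273 and 202 FPKM in sedentary libraries, so that it was higher in every 10 day TAC library and differed widely among them. Rn45s was also at 1588 to 3041 FPKM in 3 day TAC, 801 to 1814 FPKM in 10 day swim and 361 to 1435 FPKM in 4 day swim. The 5 day MI libraries had 120 and 1289 FPKM, and the 3 day sham libraries 146 and 183 FPKM.

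Most of the transcriptome differed between the groups. Of 9425 genes tested by limma, fitted to log2(FPKM + 1), 3654 (38.8%) were higher and 2541 (27%) were lower in 10 day TAC than in sedentary fibroblasts at a Benjamini-Hochberg adjusted p under 0.05. All adjusted p-values below are of this kind, over all genes tested. The difference of group means on this scale (log2 change below) understates the change of a gene at low FPKM. The groups did not overlap for 3466 (36.8%) of all genes tested that were called higher and 2291 (24.3%) that were called lower. The median called gene was 1.87-fold higher or 1.75-fold lower, and 264 called genes were more than 2 log2 units higher, against 159 more than 2 log2 units lower. The median log2 change of all genes tested was 0.12, the value beside which each gene group below is read. Counts of genes that rose and fell in a group are read beside 38.8% and 27%.

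The calls were tied to transcript length. Genes were split into 5 classes of equal size by their longest annotated transcript. In the shortest class, of 59 to 1675 bases, 69.2% were called higher in 10 day TAC and 6.52% lower, with a median log2 change of 0.88. In the next 3 classes, up to 2601, 3559 and 4850 bases, 51.8%, 37.1% and 23.8% were called higher, and 13%, 21.1% and 36.2% lower. In the longest class, of 4851 to 123179 bases, 11.8% were called higher and 58.2% lower, with a median of -0.50. Across genes, fold change and length had a Spearman rank correlation of -0.511, and fold change and GC content one of 0.395, as descriptions over genes that share the same 6 libraries. Within each library, log2(FPKM + 1) fell with length by 0.629, 0.651 and 0.777 per doubling in 10 day TAC, against 0.179, 0.303 and 0.219 in sedentary fibroblasts, so every 10 day TAC library had the steeper slope. A steep slope was not particular to 10 day TAC. The fall was 0.658 to 0.794 in 3 day TAC, 0.529 to 0.646 in 10 day swim and 0.660 to 0.899 in 4 day swim. It was 0.215 to 0.244 in 3 day sham and 0.226 to 0.231 in 5 day MI.

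A second set of values was therefore made, in which each library's smooth dependence on length and GC content was subtracted. After that, 3505 of 9346 genes (37.5%) were called higher and 1721 (18.4%) lower, and the median was 0.15. In total 3893 genes were called the same way before and after: 2617 (28%) higher and 1276 (13.7%) lower. A further 38 genes called higher became lower, and 141 called lower became higher. What gave the length trend was not tested, and the values so obtained (length-corrected below) stand beside the gene groups.

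**Figure D1:**
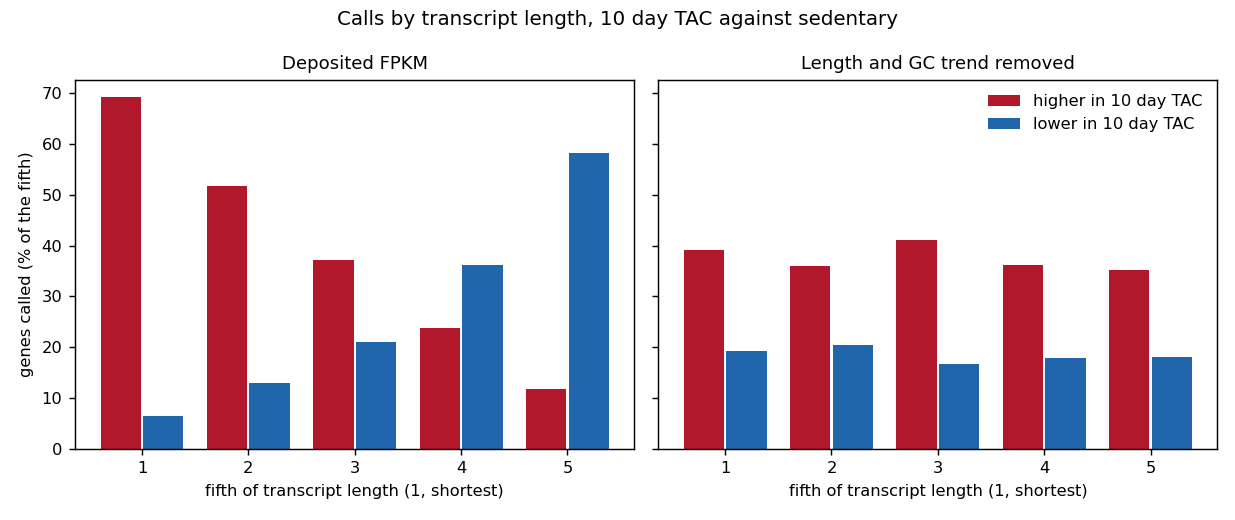
Share of genes called higher (red) and lower (blue) in 10 day TAC than in sedentary fibroblasts, in percent of each of 5 length classes from shortest to longest, from deposited FPKM (left) and with the length and GC trend subtracted (right). In the deposited values the share called higher is 69.2% in the shortest class and 11.8% in the longest, and the share called lower 6.52% and 58.2%, while with the trend subtracted the shares called higher lie between 35.2% and 41.2%.

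Matrix genes were among the largest rises. Of the 15 largest rises by the naming rule, Cthrc1, Eln, Thbs4, Col1a1 and Fmod belong to the matrix lists described here. Cthrc1, a secreted collagen triple helix repeat protein of activated fibroblasts (chr15:39076932-39087119, mm10), was at 5.9, 20.9 and 77.9 FPKM in 10 day TAC, against 0.117, 0.107 and 0.237 FPKM in sedentary libraries (log2 change 4.31, SE 0.60, adjusted p = 2.34e-05). All the 10 day TAC libraries lay far above the sedentary ones, and they also differed among themselves by more than 10-fold. Eln encodes tropoelastin, the core of elastic fibres (chr5:134702596-134747254), and was at 78.7, 102 and 103 FPKM in 10 day TAC, against 6.61, 6.27 and 3.19 FPKM in sedentary libraries (log2 change 3.95, SE 0.32, adjusted p = 4.6e-07). Thbs4, a thrombospondin of stressed heart and tendon matrix (chr13:92751586-92794818), was at 16.7, 35.4 and 19.7 FPKM in 10 day TAC, against 0.806, 0.638 and 0.889 FPKM in sedentary libraries (log2 change 3.74, SE 0.25, adjusted p = 9.36e-08). For both genes the groups did not overlap.

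Fibrillar collagens bear the tension of the interstitium. Of 10 fibrillar collagen genes, 6 were expressed enough to be tested, and 5 of them rose while none fell, with a median log2 change of 1.36 and a length-corrected median of 1.63. Col1a1, the main chain of type I collagen (chr11:94936270-94951856), was at 129, 164 and 253 FPKM in 10 day TAC, against 29.6, 16.3 and 27.8 FPKM in sedentary libraries (log2 change 2.82, SE 0.33, adjusted p = 3.07e-06). Col1a2, its partner chain, was at 99.9, 110.5 and 121 FPKM in 10 day TAC, against 31, 18 and 34.9 FPKM in sedentary libraries (log2 change 1.99, SE 0.29, adjusted p = 1.87e-05). Col3a1, of the finer type III fibrils, was at 91.1, 89 and 66 FPKM in 10 day TAC, against 28.8, 13.1 and 33.9 FPKM in sedentary libraries (log2 change 1.75, SE 0.36, adjusted p = 0.000455). None of the 3 genes overlapped between groups, and Col1a1 with its long transcript kept a length-corrected log2 change of 2.92. The type V chains, which set fibril width, showed 0.97 (adjusted p = 0.00483) for Col5a1 and 0.69 (adjusted p = 0.00335) for Col5a3, with 0.48 (adjusted p = 0.0806) for Col5a2. Of 13 other collagens tested, 7 rose and none fell (median 0.62, length-corrected 0.78, with 10 higher, and 13 higher with the length trend alone removed). Col8a2, a short-chain collagen, was at 2.32, 2.55 and 5.16 FPKM in 10 day TAC, against 0.101, 0.0887 and 0.102 FPKM in sedentary libraries (log2 change 1.93, SE 0.19, adjusted p = 1.23e-06). Col4a2, a basement membrane chain, rose with 1.21 (adjusted p = 3.39e-05), and for its partner Col4a1 the value was 0.27 (adjusted p = 0.291).

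Elastic fibres consist of an elastin core on a microfibril scaffold, and most of the scaffold genes that changed were higher. Of 18 elastic fibre genes, all tested, 9 rose and 3 fell, with a median of 0.47 and 0.73 after length correction. Mfap4, a microfibril-associated protein, was at 146, 142 and 166 FPKM in 10 day TAC, against 25.6, 24.3 and 16.3 FPKM in sedentary libraries (log2 change 2.75, SE 0.25, adjusted p = 9.36e-07). Ltbp2, a latent TGF-beta binding protein of microfibrils, was at 6.05, 7.83 and 10 FPKM in 10 day TAC, against 0.965, 0.878 and 0.827 FPKM in sedentary libraries (log2 change 2.22, SE 0.21, adjusted p = 1.13e-06). Both were several-fold above every sedentary library in each 10 day TAC library. Smaller rises were seen for Mfap2, a microfibril protein, 2.11 (adjusted p = 1.06e-06), for Efemp2 (fibulin-4, needed for elastin assembly), 1.51 (adjusted p = 2.02e-06), and for Emilin1, an elastin-associated glycoprotein, 1.42 (adjusted p = 4.79e-05). Efemp1, the related fibulin-3, fell to 3.87, 2.27 and 0.985 FPKM in 10 day TAC libraries, against 16.9, 16.8 and 14.1 FPKM in sedentary libraries (log2 change -2.41, SE 0.28, adjusted p = 2.6e-06). Emilin2 and Ltbp1 fell too, with log2 changes of -1.54 (adjusted p = 8.97e-05) and -1.41 (adjusted p = 3.17e-05), while for Fbn1, the fibrillin of the scaffold itself, the value was -0.12 (adjusted p = 0.74). Without 10 day TAC replicate 1 the genes that fell numbered 6.

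Matricellular proteins, which signal from the matrix without bearing load, split in both directions. Of 23 tested, 11 rose and 8 fell (median 0.18, length-corrected 0.06), and without 10 day TAC replicate 3, or without sedentary replicate 1, the number that fell was 5. Postn, or periostin, a marker of activated fibroblasts (chr3:54361107-54391041), was at 50, 69.1 and 44.9 FPKM in 10 day TAC, against 9.6, 4.44 and 9.68 FPKM in sedentary libraries (log2 change 2.69, SE 0.36, adjusted p = 9.79e-06). Cilp, a cartilage intermediate layer protein that binds TGF-beta, was at 46.7, 45.5 and 35.9 FPKM in 10 day TAC, against 8.04, 6.66 and 5.35 FPKM in sedentary libraries (log2 change 2.51, SE 0.32, adjusted p = 5.81e-06). Sparc, which helps collagen assemble, was at 495, 578 and 417 FPKM in 10 day TAC, against 138, 125 and 123 FPKM in sedentary libraries (log2 change 1.93, SE 0.18, adjusted p = 1.02e-06). In each of these the lowest 10 day TAC library was more than 3-fold above the highest sedentary one. Comp, a cartilage protein of the thrombospondin family, rose by 2.15 (adjusted p = 9.36e-07) and Wisp2, a CCN family protein, by 2.19 (adjusted p = 3.53e-06) on the log2 scale. In the other direction, Thbs1, an activator of latent TGF-beta, was at 20.4, 22.5 and 34.7 FPKM in 10 day TAC, against 495, 397 and 164 FPKM in sedentary libraries (log2 change -3.61, SE 0.76, adjusted p = 0.000838). Thbs2, its close relative, was at 5.16, 3.62 and 3.19 FPKM in 10 day TAC, against 29, 21.7 and 17.7 FPKM in sedentary libraries (log2 change -2.25, SE 0.32, adjusted p = 1.82e-05). Thus Thbs4 rose where Thbs1 and Thbs2 fell, and for each of the 3 genes the groups did not overlap. For Ctgf, a classical TGF-beta and Yap target, the value was -0.13 (adjusted p = 0.783).

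Of 20 proteoglycan and hyaluronan genes tested, 4 rose and 9 fell (median -0.31, length-corrected 0.00). Fmod, fibromodulin, a small proteoglycan of collagen fibrils, was at 5.2, 10.8 and 12 FPKM in 10 day TAC, against 0.216, 0.412 and 0.571 FPKM in sedentary libraries (log2 change 2.82, SE 0.21, adjusted p = 2.56e-07). Bgn, biglycan, of the same family, was at 605, 645 and 542 FPKM in 10 day TAC, against 287, 256 and 235 FPKM in sedentary libraries (log2 change 1.20, SE 0.19, adjusted p = 3.62e-05). Dcn, decorin, was instead at 577, 449 and 273 FPKM in 10 day TAC, against 850.3, 952 and 721 FPKM in sedentary libraries (log2 change -1.01, SE 0.28, adjusted p = 0.00492). Its length-corrected value was -0.24 (adjusted p = 0.401). Prg4, lubricin, fell to 4.56, 5.24 and 3.22 FPKM in 10 day TAC libraries, against 87.2, 49.6 and 27.2 FPKM in sedentary libraries (log2 change -3.25, SE 0.46, adjusted p = 1.97e-05). Among the other genes that fell, Cd44, the hyaluronan receptor, had -1.98 (adjusted p = 0.00516) and Has1, a hyaluronan synthase, -1.95 (adjusted p = 0.00276).

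Genes that fold, trim and crosslink collagen were mostly higher. Of 23 tested, 12 rose and 5 fell, with a median of 0.52 and 0.29 after length correction, and without 10 day TAC replicate 3 or sedentary replicate 1 the number that fell was 2 (3 without sedentary replicate 2). Serpinh1, the collagen chaperone Hsp47, was at 215, 246 and 257 FPKM in 10 day TAC, against 59.2, 83.2 and 49 FPKM in sedentary libraries (log2 change 1.92, SE 0.19, adjusted p = 1.3e-06). Loxl1, an amine oxidase that crosslinks elastin, was at 51, 47 and 45.9 FPKM in 10 day TAC, against 20.2, 12.8 and 15.8 FPKM in sedentary libraries (log2 change 1.53, SE 0.18, adjusted p = 3.53e-06). Both groups of libraries were separate for each of these genes. Fkbp10 and Ppib, prolyl isomerases of procollagen folding, had 1.85 (adjusted p = 1.08e-06) and 1.76 (adjusted p = 2.25e-06). Proteases and their inhibitors went the other way: of 26 tested, 4 rose and 13 fell (median -0.45, length-corrected -0.26), and 8 fell without 10 day TAC replicate 3. The collagenase Mmp13 was at 2.02, 0.75 and 0.432 FPKM in 10 day TAC, against 28, 26.6 and 7.04 FPKM in sedentary libraries (log2 change -3.24, SE 0.51, adjusted p = 6.26e-05). Plau (urokinase) fell with -2.27 (adjusted p = 0.000213) and Adamts1, an aggrecanase, with -1.70 (adjusted p = 0.00113). The broad inhibitor Timp3 was at 21.1, 25.7 and 17.8 FPKM in 10 day TAC, against 47, 43.5 and 60.8 FPKM in sedentary libraries (log2 change -1.19, SE 0.25, adjusted p = 0.000471). Timp1, an inhibitor of many metalloproteinases, was at 32, 45.1 and 69.9 FPKM in 10 day TAC, against 16.7, 18.1 and 6.2 FPKM in sedentary libraries (log2 change 1.82, SE 0.45, adjusted p = 0.00217). Its length-corrected value was 0.96 (adjusted p = 0.0678). The deposited loci of Timp1, Timp3 and Fkbp10 each span all or most of another protein-coding gene in GENCODE M21, as do those of Prg4, Ppib, Ptx3, Tagln, Scx, Mdk, Cxcl10, Nfkbia, B2m, Txnrd1 and Tk1, and whether these genes share reads with the other gene was not tested. Mmp2, a gelatinase, had 0.15 (adjusted p = 0.617) and the membrane-bound Mmp14 -0.02 (adjusted p = 0.953).

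**Figure D2:**
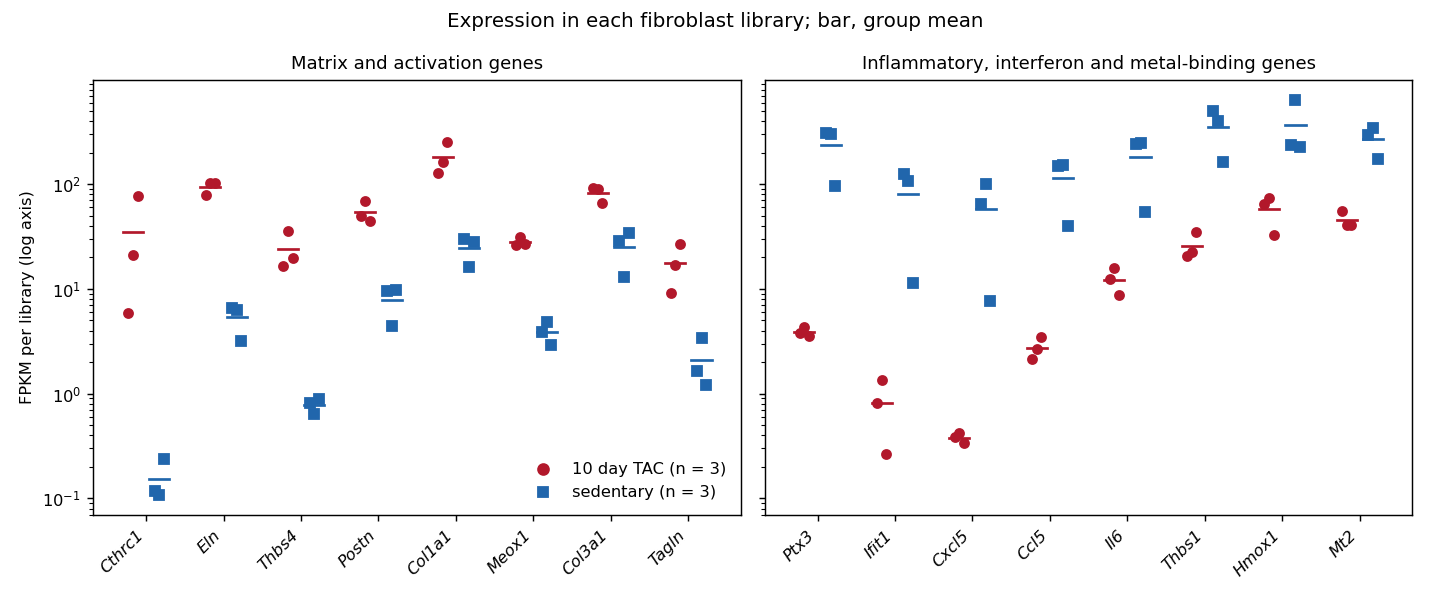
FPKM on a log axis in each 10 day TAC library (red circles) and each sedentary library (blue squares), n = 3 each, with bars at the group means, for 8 matrix and activation genes (left) and 8 inflammatory, interferon and metal-binding genes (right). The groups do not overlap for any of the 16 genes, and Cthrc1 reaches 77.9 FPKM in 10 day TAC while its highest sedentary library is at 0.237 FPKM.

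Single markers of fibroblast activation differed in how clearly they rose. Meox1, a homeobox factor of activated fibroblasts (chr11:101877510-101894354), was at 26.3, 31.3 and 26.7 FPKM in 10 day TAC, against 3.88, 4.86 and 2.91 FPKM in sedentary libraries (log2 change 2.59, SE 0.19, adjusted p = 2.56e-07). Tagln, the actin-binding transgelin, was at 9.09, 17 and 26.7 FPKM in 10 day TAC, against 1.66, 3.43 and 1.21 FPKM in sedentary libraries (log2 change 2.53, SE 0.38, adjusted p = 2.82e-05). Acta2, the smooth muscle actin that defines the myofibroblast, was at 24.5, 15 and 27.8 FPKM in 10 day TAC, against 10.3, 16.5 and 5.04 FPKM in sedentary libraries (log2 change 1.10, SE 0.39, adjusted p = 0.0208). For Meox1 and Tagln the groups were separate. For Acta2 they overlapped, since sedentary replicate 2 exceeded 10 day TAC replicate 2. Its length-corrected value was 0.84 (adjusted p = 0.0801). Without 10 day TAC replicate 1 or 3, or without sedentary replicate 3, Acta2 also missed the threshold, with log2 changes of 1.01, 0.93 and 0.69. Of 22 myofibroblast contractile genes tested, 8 rose and 6 fell (median 0.21, length-corrected 0.12, with 5 higher and 4 lower). These shares are near the 38.8% and 27% of all genes tested. The genes that rose included Myl6, a myosin light chain, 1.94 (adjusted p = 1.61e-06), and those that fell included the long transcripts of Cald1 (caldesmon), -1.25 (adjusted p = 0.00172), and Vcl (vinculin), -1.04 (adjusted p = 0.000977). Smooth muscle expresses many genes of this list too.

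Among transcription factors of fibroblasts and of the epicardium, from which many of them descend, 9 of 26 rose and 6 fell (median 0.10, length-corrected 0.16). Here too the shares are near the 38.8% and 27% of all genes tested. Scx, the tendon factor scleraxis that activates collagen genes, was at 1.04, 2.5 and 4.66 FPKM in 10 day TAC, against 0.0909, 0.0641 and 0.207 FPKM in sedentary libraries (log2 change 1.62, SE 0.24, adjusted p = 2.59e-05). Zeb2, a zinc finger repressor, fell to 1.54, 0.975 and 0.789 FPKM in 10 day TAC libraries, against 11, 7.66 and 6.01 FPKM in sedentary libraries (log2 change -2.11, SE 0.22, adjusted p = 1.4e-06). The groups were separate for both. Tcf21, which marks resting cardiac fibroblasts, was at 23.1, 19.3 and 18.5 FPKM in 10 day TAC, against 31.8, 43.2 and 16.9 FPKM in sedentary libraries (log2 change -0.48, SE 0.37, adjusted p = 0.252), with the sedentary libraries on both sides of the 10 day TAC range. Pdgfra, a growth factor receptor on the surface of most cardiac fibroblasts, was at 6.74, 4.04 and 2.14 FPKM in 10 day TAC, against 10.9, 8.44 and 11.2 FPKM in sedentary libraries (log2 change -1.16, SE 0.27, adjusted p = 0.00113). Its length-corrected value was -0.57 (adjusted p = 0.0446), and with the length trend alone removed -0.54 (adjusted p = 0.0518). Of 22 mechanosensing regulators, 3 rose and 12 fell (median -0.43, length-corrected -0.23). They included Itgb5, an integrin chain, with 1.48 (adjusted p = 1.24e-05), and on the other side the collagen receptor Ddr2, -1.83 (adjusted p = 3.82e-05), and the integrin chain Itgav, -1.65 (adjusted p = 5.98e-05). Yap1, a stretch-regulated coactivator, had -0.44 (adjusted p = 0.068).

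The TGF-beta ligands differed from each other. Tgfb3 was at 9.04, 9.28 and 14 FPKM in 10 day TAC, against 2.38, 2.07 and 2.56 FPKM in sedentary libraries (log2 change 1.80, SE 0.20, adjusted p = 2.27e-06). Tgfb2 was at 1.13, 1.37 and 0.679 FPKM in 10 day TAC, against 10.2, 8.78 and 5.4 FPKM in sedentary libraries (log2 change -2.12, SE 0.38, adjusted p = 0.000157). Tgfb3 was thus above every sedentary library and Tgfb2 below every one, while for Tgfb1, the ligand most often tied to cardiac fibrosis, the log2 change was 0.49 (adjusted p = 0.0887). Over the ligands and antagonists, 4 of 15 tested rose and 5 fell (median -0.19, length-corrected -0.08). Inhba, which encodes the chain of activin A, fell with -2.30 (adjusted p = 0.00346). Among receptors, Smads and targets, 6 of 21 rose and 5 fell (median 0.09, length-corrected 0.41, with 11 higher and 3 lower), and 3 fell without 10 day TAC replicate 3. Id3, an inhibitor of helix-loop-helix factors induced by BMP signals, was at 77.5, 87.8 and 125 FPKM in 10 day TAC, against 20.4, 28.6 and 29.5 FPKM in sedentary libraries (log2 change 1.84, SE 0.32, adjusted p = 9.89e-05). Id1 had 1.85 (adjusted p = 0.000401) and the inhibitory Smad6 1.24 (adjusted p = 0.000159), and Skil, a repressor of Smad activity, fell with -1.43 (adjusted p = 0.000215).

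Of 14 Wnt pathway genes tested, 9 rose and 2 fell (median 0.55, length-corrected 0.73, with 10 higher and 1 lower), 1 fell without sedentary replicate 1, and 13 further members were too low to test. Those that rose were the secreted Frzb, Sfrp1, Sfrp2, Sfrp4, Sfrp5 and Dkk3 and the receptors Fzd1, Fzd2 and Fzd7, and those that fell were the ligand Wnt11 and the coreceptor Lrp6. Frzb, a secreted frizzled-related antagonist, was at 12.6, 11.3 and 12.1 FPKM in 10 day TAC, against 3.69, 4.51 and 3.28 FPKM in sedentary libraries (log2 change 1.43, SE 0.15, adjusted p = 1.57e-06), with the 10 day TAC libraries within a narrow range above the sedentary ones. Sfrp2, of the same family, had 1.5 (adjusted p = 0.000406), the dickkopf relative Dkk3 1.53 (adjusted p = 2.49e-05) and the receptor Fzd2 1.27 (adjusted p = 2.11e-06). Among 31 growth factors and receptors, 11 rose and 13 fell (median 0.04, length-corrected -0.04). Mdk, the heparin-binding growth factor midkine, was at 7.23, 10.7 and 16.7 FPKM in 10 day TAC, against 0.978, 1.4 and 1.02 FPKM in sedentary libraries (log2 change 2.49, SE 0.24, adjusted p = 1.08e-06). Vegfa, the main angiogenic factor, was at 9.41, 8.12 and 4.75 FPKM in 10 day TAC, against 38.5, 31.1 and 17.2 FPKM in sedentary libraries (log2 change -1.80, SE 0.55, adjusted p = 0.00982). Midkine was higher, and Vegfa was lower, in every 10 day TAC library than in any sedentary library.

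Genes of resting fibroblasts were mostly lower. Of 22 genes, all tested, 13 fell and 5 rose, with a median of -0.80 and -0.50 after length correction (10 lower and 4 higher). Gsn, gelsolin, which severs actin filaments and is among the most abundant mRNAs of cardiac fibroblasts (chr2:35256359-35307902), was at 598, 206 and 124 FPKM in 10 day TAC, against 1268, 1362 and 1033 FPKM in sedentary libraries (log2 change -2.28, SE 0.49, adjusted p = 0.000816). Lama2, a laminin chain of basement membranes, was at 3.27, 2.22 and 1.77 FPKM in 10 day TAC, against 26.8, 10.3 and 21.4 FPKM in sedentary libraries (log2 change -2.51, SE 0.32, adjusted p = 7.01e-06). Dpt, dermatopontin, was at 112, 75.9 and 66.6 FPKM in 10 day TAC, against 170.3, 167 and 135 FPKM in sedentary libraries (log2 change -0.91, SE 0.26, adjusted p = 0.00541). No library of one group reached the other for these genes, and the 10 day TAC libraries of Gsn differed several-fold among themselves. C3, the central complement component made by fibroblasts, was at 11.8, 4.66 and 3.81 FPKM in 10 day TAC, against 111, 47.5 and 92 FPKM in sedentary libraries (log2 change -3.50, SE 0.42, adjusted p = 4.68e-06). Ly6a, the stem cell antigen Sca-1, 1.26 (adjusted p = 6.87e-05), and Mgp (matrix Gla protein), 1.20 (adjusted p = 2.91e-05), were among the 5 that rose, of which 3 did so without 10 day TAC replicate 1 or 2 or without sedentary replicate 2. Lum (lumican) had 0.10 (adjusted p = 0.719) and Pi16, of adventitial fibroblasts, 0.05 (adjusted p = 0.881).

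**Figure D3:**
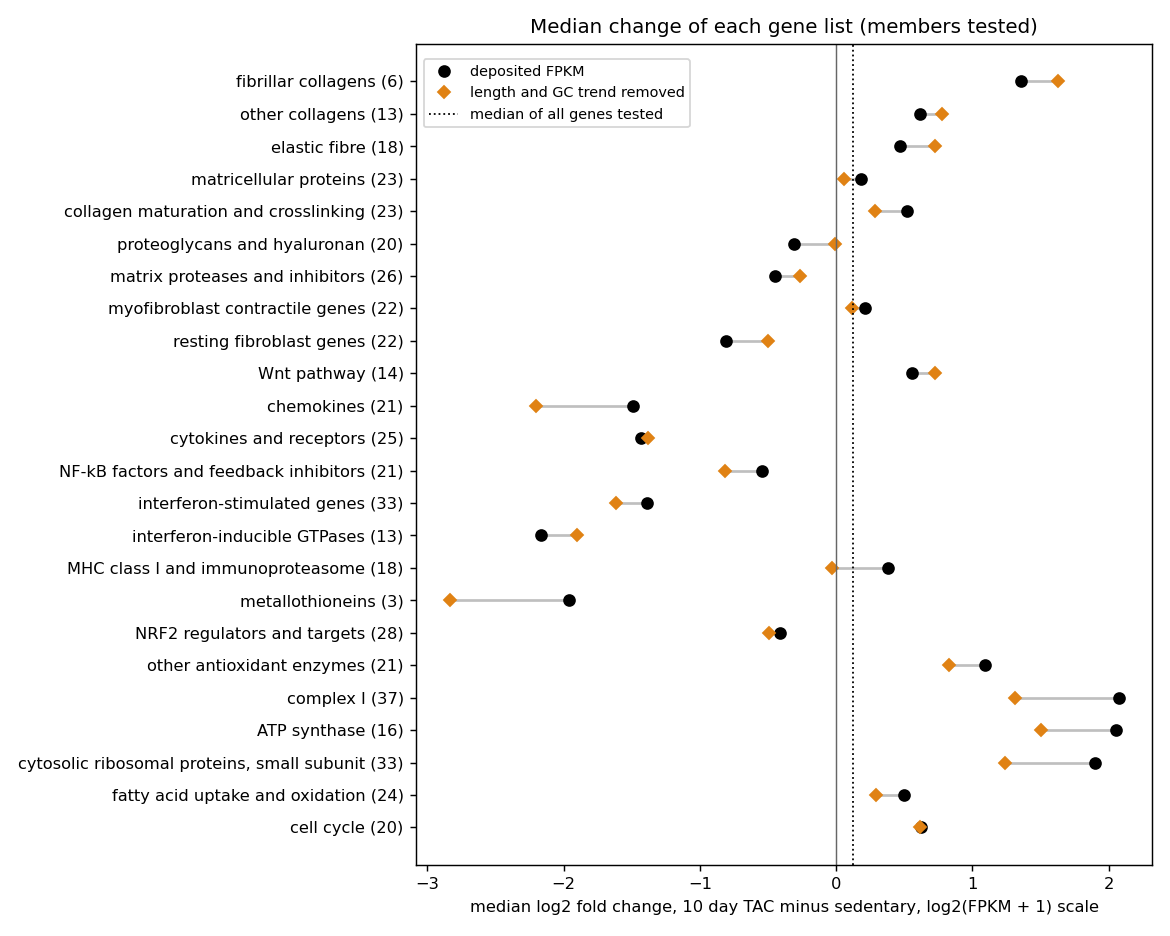
Median log2 change of 10 day TAC minus sedentary fibroblasts for 24 gene lists, with the number of members tested in parentheses, from deposited FPKM (black circles) and with the length and GC trend subtracted (orange diamonds); the dotted line is the median of all genes tested, 0.12. Interferon-inducible GTPases lie at -2.17, metallothioneins at -1.96 and chemokines at -1.49, and fibrillar collagens at 1.36, with both values on the same side of 0 for each of these 4 lists.

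Inflammatory mediators were much lower in 10 day TAC than in sedentary fibroblasts. Of 21 chemokines tested, 15 fell and 1 rose (2 without sedentary replicate 2), with a median log2 change of -1.49 and a length-corrected median of -2.20 (15 lower, 1 higher). Of 25 cytokines and cytokine receptors, 14 fell and none rose (median -1.43, length-corrected -1.38, with 15 lower and 3 higher). Of 21 NF-kB factors and feedback inhibitors, which NF-kB itself induces in part, 11 fell and 1 rose (median -0.54, length-corrected -0.81). Without 10 day TAC replicate 3, or without sedentary replicate 1, 6 of the NF-kB list fell, and the gene that rose, the coactivator Bcl3, did so with all libraries or without 10 day TAC replicate 3. In 72 of the 76 genes that fell in these lists and in the interferon lists below, sedentary replicate 3 was the lowest sedentary library, so the size of the difference varies with the sedentary library it is read against. In bulk RNA, fewer cells of a type and less RNA per cell cannot be told apart.

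Ptx3, pentraxin 3, a soluble pattern receptor induced by inflammation (listed at chr3:66053558-66296837, which spans a second gene), was at 3.8, 4.33 and 3.52 FPKM in 10 day TAC, against 307, 304 and 95.8 FPKM in sedentary libraries (log2 change -5.42, SE 1.01, adjusted p = 0.000369), which is the largest fall by the naming rule. Ccl5, a chemokine for T cells and monocytes (chr11:83525779-83530518), was at 2.15, 2.68 and 3.44 FPKM in 10 day TAC, against 148, 154 and 39.5 FPKM in sedentary libraries (log2 change -4.72, SE 0.53, adjusted p = 3.56e-06). Cxcl5, a neutrophil chemokine, was at 0.386, 0.419 and 0.338 FPKM in 10 day TAC, against 64.2, 100.1 and 7.63 FPKM in sedentary libraries (log2 change -4.80, SE 0.81, adjusted p = 0.000154). The 10 day TAC libraries lay close together in all 3 genes, and the sedentary libraries were spread over several-fold with no overlap. Cxcl1, another neutrophil chemokine, was at 98.8, 93.6 and 102 FPKM in 10 day TAC, against 1825, 1539.9 and 407 FPKM in sedentary libraries (log2 change -3.40, SE 0.65, adjusted p = 0.000374). Cxcl10, the interferon-induced chemokine, was at 24.3, 33.7 and 15.1 FPKM in 10 day TAC, against 321, 515 and 67 FPKM in sedentary libraries (log2 change -3.21, SE 0.77, adjusted p = 0.00207). Ccl2, which recruits monocytes, was at 138, 308 and 111 FPKM in 10 day TAC, against 1164, 1490.1 and 303 FPKM in sedentary libraries (log2 change -2.26, SE 0.73, adjusted p = 0.0135). Its groups overlapped by 1 library on each side. The adjusted p was 0.0514 without 10 day TAC replicate 3, 0.0544 without sedentary replicate 1 and 0.0583 without sedentary replicate 2. Ccl8, a monocyte chemokine and the 1 that rose, was at 18.8, 14.4 and 16.6 FPKM in 10 day TAC, against 9.85, 5.77 and 4.41 FPKM in sedentary libraries (log2 change 1.25, SE 0.33, adjusted p = 0.00349). Cxcl12, the constitutive stromal chemokine, had 0.35 (adjusted p = 0.113).

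Il6, the cytokine interleukin 6 (chr5:30013161-30019968), was at 12.4, 15.7 and 8.68 FPKM in 10 day TAC, against 242, 247 and 54.3 FPKM in sedentary libraries (log2 change -3.53, SE 0.84, adjusted p = 0.00202). Csf1, the growth factor of macrophages, was at 12, 20.2 and 10.2 FPKM in 10 day TAC, against 296, 317 and 65.7 FPKM in sedentary libraries (log2 change -3.67, SE 0.94, adjusted p = 0.00363). Il33, an alarmin of stromal cells, was at 0.98, 0.837 and 0.832 FPKM in 10 day TAC, against 23.1, 25.5 and 3.54 FPKM in sedentary libraries (log2 change -2.92, SE 0.59, adjusted p = 0.000543). In each of them every 10 day TAC library was below every sedentary library. Tnf, tumour necrosis factor, also fell, with -2.03 (adjusted p = 0.00105), while the macrophage cytokine Il1b had -0.93 (adjusted p = 0.154) and the myeloid growth factor Csf2 -2.45 (adjusted p = 0.0743). Ptgs2, the inducible cyclooxygenase, was at 14.5, 18.4 and 8.99 FPKM in 10 day TAC, against 199.6, 179.6 and 45.1 FPKM in sedentary libraries (log2 change -3.04, SE 0.73, adjusted p = 0.00206). Among NF-kB genes, Nfkb1, a subunit, fell with -2.25 (adjusted p = 0.00136) and Nfkbia, its inhibitor, with -0.54 (adjusted p = 0.0178), and Rela, the other main subunit, had -0.13 (adjusted p = 0.633).

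Most interferon-stimulated genes fell. Of 33 such genes, all tested, 23 fell and 2 rose (median -1.39, length-corrected -1.61, with 20 lower), and for 18 of the 23 the groups did not overlap. All 13 interferon-inducible GTPases fell (median -2.17, length-corrected -1.90, with 12 lower), 11 of them without overlap. Over all genes tested, the groups did not overlap for 2291 of the 2541 called lower, so such separation was not particular to these lists. The number of interferon-stimulated genes that fell was between 17 (without sedentary replicate 2) and 29 (without sedentary replicate 3) when single libraries were left out, and it was 13 for the GTPases in every such case. Interferons act through factors that bind the interferon-stimulated response element, and the promoters of Ifit1, Isg15 and Irgm1 are shown because they stand for a cytoplasmic antiviral effector, a ubiquitin-like modifier and a GTPase of this program. Each window runs 5' to 3' on the gene's own strand, from 250 bases before to 50 bases after the annotated start, from RefSeq on GRCm38.p6, and capitals mark matches to TTTCNNTTTC, or its reverse complement GAAANNGAAA, where N is any base.
Ifit1 (chr19:34640639-34640938, plus strand): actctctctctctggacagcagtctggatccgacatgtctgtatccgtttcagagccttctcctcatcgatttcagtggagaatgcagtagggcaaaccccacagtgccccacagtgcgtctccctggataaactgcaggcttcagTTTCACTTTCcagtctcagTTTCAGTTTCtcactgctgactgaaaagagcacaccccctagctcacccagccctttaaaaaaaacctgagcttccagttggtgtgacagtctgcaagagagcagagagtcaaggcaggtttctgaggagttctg
Isg15 (chr4:156200769-156201068, minus strand): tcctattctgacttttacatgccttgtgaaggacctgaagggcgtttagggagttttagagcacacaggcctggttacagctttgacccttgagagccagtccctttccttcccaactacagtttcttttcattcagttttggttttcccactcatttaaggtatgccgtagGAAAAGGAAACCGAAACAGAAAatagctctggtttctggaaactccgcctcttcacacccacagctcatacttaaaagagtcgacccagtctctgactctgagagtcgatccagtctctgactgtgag
Irgm1 (chr11:48871371-48871670, minus strand): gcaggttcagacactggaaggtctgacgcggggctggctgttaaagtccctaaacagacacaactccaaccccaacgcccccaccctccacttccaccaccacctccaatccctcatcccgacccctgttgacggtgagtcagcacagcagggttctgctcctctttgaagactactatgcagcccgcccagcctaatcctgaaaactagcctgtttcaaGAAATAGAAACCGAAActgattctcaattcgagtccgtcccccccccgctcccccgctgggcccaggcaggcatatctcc

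The Ifit1 window held 2 separate matches, the Isg15 window 3 that overlap each other and the Irgm1 window 2 that overlap. None shared bases with matches to the other 3 motifs searched. Of all 32851 promoter windows, 3.44% held such a match on either strand, as did 3.44% of the 8791 windows of tested genes. The share was 2.9% of the windows of genes called higher and 5.12% of those of genes called lower. Among tested interferon-stimulated genes with a window (24 genes, 29 windows) 12 windows (41.4%) held a match, and among GTPases (9 genes, 10 windows) 9 did (90%). These are letters in a fixed window and describe neither binding nor a cause.

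Ifit1 (chr19:34640889-34650009) was at 0.809, 1.35 and 0.268 FPKM in 10 day TAC, against 124, 108 and 11.5 FPKM in sedentary libraries (log2 change -4.98, SE 0.94, adjusted p = 0.000393). Rsad2, the antiviral protein viperin, was at 2.16, 3.25 and 1.09 FPKM in 10 day TAC, against 165, 255 and 15.7 FPKM in sedentary libraries (log2 change -4.88, SE 1.20, adjusted p = 0.00297). Isg15 was at 10.1, 18.3 and 12.3 FPKM in 10 day TAC, against 77.3, 138 and 17.5 FPKM in sedentary libraries (log2 change -2.05, SE 0.71, adjusted p = 0.0194). The Ifit1 and Rsad2 libraries of the groups did not overlap, although sedentary replicate 3 was an order of magnitude below the other sedentary libraries, and for Isg15 that library lay within the 10 day TAC range. Irgm1, an immunity-related GTPase, was at 5.68, 8.77 and 4.05 FPKM in 10 day TAC, against 64, 77.1 and 24.7 FPKM in sedentary libraries (log2 change -2.88, SE 0.66, adjusted p = 0.00144). Gbp2 and Igtp, of the same broad family, had -2.22 (adjusted p = 0.000168) and -2.12 (adjusted p = 0.00679). Another 8 of the 33 interferon-stimulated genes were not called, among them Irf7, a master interferon regulator, with -0.09 (adjusted p = 0.858), and 2 rose (1 without 10 day TAC replicate 2 or sedentary replicate 3), Bst2 (tetherin) and the antiviral membrane protein Ifitm3, with 0.47 (adjusted p = 0.0218). Bst2 rose to 27.1, 42.9 and 35 FPKM in 10 day TAC libraries, against 11.4, 12.8 and 8.88 FPKM in sedentary libraries (log2 change 1.57, SE 0.19, adjusted p = 3.46e-06).

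A cluster of interferon-inducible Ifi200 genes on chromosome 1 supplied 6 of the 15 largest falls and 1 further gene, AI607873, of the same locus. Ifi205 was at 9.27, 7.86 and 2.76 FPKM in 10 day TAC, against 270.2, 252 and 114 FPKM in sedentary libraries (log2 change -4.83, SE 0.63, adjusted p = 1.36e-05). Ifi204 was at 8.91, 7 and 3.11 FPKM in 10 day TAC, against 205, 200.3 and 86.7 FPKM in sedentary libraries (log2 change -4.48, SE 0.55, adjusted p = 8.32e-06). Mnda had a log2 change of -4.69, Mndal -4.54, AI607873 -4.15, Ifi202b -3.96 and Ifi203 -3.83. The groups did not overlap in any of the 7. These paralogs are near-identical over long stretches and can share reads, so how the signal divides among them is uncertain, and they are not 7 separate measurements.

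Of 18 MHC class I and immunoproteasome genes, which present antigen, 7 rose and 1 fell (median 0.38, length-corrected -0.03, with 4 higher and none lower), and the share that rose is near the 38.8% of all genes tested. Without sedentary replicate 3 the number that fell was 4, and without sedentary replicate 1 or 2 none did. The immunoproteasome subunits Psmb9 and Psmb8 had 1.29 (adjusted p = 0.00343) and 1.18 (adjusted p = 0.00187), Nlrc5, the activator of class I genes, fell with -0.86 (adjusted p = 0.000293), and B2m, the shared light chain, had 0.06 (adjusted p = 0.812). Immediate early genes, which respond to stimuli within minutes, were mostly not called: 4 of 28 rose and 6 fell (median -0.08, length-corrected -0.44, with 2 higher and 11 lower). Without 10 day TAC replicate 1 or sedentary replicate 1 the number that rose was 1, and without 10 day TAC replicate 3 it was 2. Fos had -0.14 (adjusted p = 0.794) and Atf3, a stress-induced factor, fell with -1.57 (adjusted p = 1.19e-05).

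Metallothioneins bind zinc and copper, buffer metals and scavenge oxidants, and the 3 of 4 metallothionein genes that were tested all fell (median -1.96, length-corrected -2.84). The promoters of Mt2 and Mt1 are shown because their induction by metals acts through metal response elements. Windows, strand and source are as above, and capitals mark matches to TGCACNC or TGCGCNC or to their reverse complements.
Mt2 (chr8:94172368-94172667, plus strand): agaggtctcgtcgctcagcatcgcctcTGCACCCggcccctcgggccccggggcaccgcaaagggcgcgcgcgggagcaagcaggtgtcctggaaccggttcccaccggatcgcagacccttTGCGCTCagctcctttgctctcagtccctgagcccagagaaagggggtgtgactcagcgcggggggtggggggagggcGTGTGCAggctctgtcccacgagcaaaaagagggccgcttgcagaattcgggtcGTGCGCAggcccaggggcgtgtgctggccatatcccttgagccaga
Mt1 (chr8:94178839-94179138, plus strand): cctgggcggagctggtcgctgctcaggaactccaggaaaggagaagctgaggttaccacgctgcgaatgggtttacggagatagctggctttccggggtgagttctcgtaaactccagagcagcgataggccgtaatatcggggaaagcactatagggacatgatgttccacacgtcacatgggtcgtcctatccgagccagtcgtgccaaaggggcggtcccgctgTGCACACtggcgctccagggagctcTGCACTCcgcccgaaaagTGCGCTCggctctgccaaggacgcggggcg

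The Mt2 window held 4 matches and the Mt1 window 3, none sharing bases with another motif searched. All 3 windows of the tested metallothioneins held at least 1, as did 25.7% of all windows and 34.7% of those of tested genes. Mt2 (chr8:94172618-94173567) was at 56, 40.4 and 40.8 FPKM in 10 day TAC, against 296, 341 and 174 FPKM in sedentary libraries (log2 change -2.50, SE 0.42, adjusted p = 8.67e-05; length-corrected -3.56). Mt1 (chr8:94179089-94180327), its neighbour, was at 81, 54.4 and 64.1 FPKM in 10 day TAC, against 154, 171 and 124 FPKM in sedentary libraries (log2 change -1.16, SE 0.24, adjusted p = 0.000474; length-corrected -1.96). Mt4 was at 4.74, 2.9 and 3.96 FPKM in 10 day TAC, against 18.9, 26.3 and 11.1 FPKM in sedentary libraries (log2 change -1.96, SE 0.42, adjusted p = 0.000735). All 3 genes are short, a class in which most genes were higher, and every 10 day TAC library was below every one of the other 16 fibroblast libraries for each of them.

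NRF2, encoded by Nfe2l2, turns on genes against oxidants through antioxidant response elements. Of 28 regulators and targets, all tested, 13 fell and 7 rose (median -0.41, length-corrected -0.49, with 12 lower and 3 higher). Hmox1, heme oxygenase 1, was at 64.6, 74.5 and 33 FPKM in 10 day TAC, against 235, 642 and 227 FPKM in sedentary libraries (log2 change -2.56, SE 0.63, adjusted p = 0.00261). Txnrd1, thioredoxin reductase, was at 11.8, 10.6 and 4.25 FPKM in 10 day TAC, against 59, 69.7 and 35.5 FPKM in sedentary libraries (log2 change -2.54, SE 0.58, adjusted p = 0.00132). Nfe2l2 itself was at 15.9, 14.3 and 7.09 FPKM in 10 day TAC, against 36.5, 29.6 and 29.8 FPKM in sedentary libraries (log2 change -1.36, SE 0.29, adjusted p = 0.000589). No library of one group reached the other in these 3 genes. The glutathione-synthesis genes Gclm and Gclc had -2.15 (adjusted p = 0.000604) and -1.47 (adjusted p = 0.00101). Nqo1, another classical target, was at 1.32, 1.31 and 1.65 FPKM in 10 day TAC, against 0.675, 2.68 and 0.46 FPKM in sedentary libraries (log2 change 0.22, SE 0.23, adjusted p = 0.404). Its sedentary replicate 2 was above all other libraries compared, and without that library the log2 change was 0.63 (adjusted p = 0.000427). Matches to TGACNNNGC, a core of the antioxidant response element, were found in 9 of 31 windows of 24 tested NRF2 genes (29%), against 14.5% of the windows of all tested genes.

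Other antioxidant enzymes went the opposite way: 14 of 21 rose and 2 fell (median 1.10, length-corrected 0.83, with 14 higher and 3 lower). Gpx1, the main glutathione peroxidase, was at 157, 157 and 219.8 FPKM in 10 day TAC, against 24.7, 25.3 and 31.4 FPKM in sedentary libraries (log2 change 2.66, SE 0.31, adjusted p = 2.88e-06). Prdx2 and Prdx5, peroxiredoxins, had 2.44 (adjusted p = 9.36e-07) and 2.22 (adjusted p = 6.81e-06), and Sod1, the cytosolic superoxide dismutase, had 1.57 (adjusted p = 1.24e-05). The 2 that fell were Prdx1 and Sod2. Prdx1 was at 74.6, 73.3 and 73.3 FPKM in 10 day TAC, against 169, 399.9 and 78.9 FPKM in sedentary libraries (log2 change -1.23, SE 0.37, adjusted p = 0.00839). Sod2, the mitochondrial dismutase that NF-kB induces, was at 4.65, 3.56 and 3.22 FPKM in 10 day TAC, against 14.9, 24.3 and 8.38 FPKM in sedentary libraries (log2 change -1.71, SE 0.34, adjusted p = 0.00035). Of 20 heat shock genes 7 rose and 5 fell (median 0.25, length-corrected 0.26, with 4 higher and 4 lower), with Hspe1, a mitochondrial chaperonin, at 2.10 (adjusted p = 4.82e-06) and Hsp90aa1, a cytosolic Hsp90, at -1.76 (adjusted p = 0.00294). Without 10 day TAC replicate 1 the number that rose was 4, and without sedentary replicate 1 the number that fell was 3. Of 25 genes of the endoplasmic reticulum 10 rose and 8 fell (median 0.18, length-corrected -0.13, with 6 higher and 5 lower). Sec61b, a subunit of the translocon, was at 35.1, 44.4 and 64.5 FPKM in 10 day TAC, against 6.19, 7.41 and 6.69 FPKM in sedentary libraries (log2 change 2.62, SE 0.30, adjusted p = 2.61e-06). Hspa5, the chaperone BiP, was at 46.7, 51.6 and 19.3 FPKM in 10 day TAC, against 118, 106 and 78.5 FPKM in sedentary libraries (log2 change -1.44, SE 0.40, adjusted p = 0.00449). Without sedentary replicate 3 the number that rose was 6, and without 10 day TAC replicate 3 the number that fell was 5.

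Nuclear-encoded genes of oxidative phosphorylation were higher almost throughout. Of 37 complex I genes 35 rose and none fell (median 2.08), of 28 genes of complexes II to IV 26 rose (median 1.91), and all 16 tested ATP synthase genes rose (median 2.06). Cytosolic ribosomal protein genes did likewise: 43 of 46 of the large subunit (median 1.59) and all 33 of the small subunit (median 1.90). The median transcript lengths of these lists, 1046, 933, 1554, 1054 and 1094 bases in the order given, lie in the shortest length class, although single members are longer, and of the shortest length class of all genes 69.2% were called higher at a median of 0.88. After length and GC correction 35 complex I genes, 24 of complexes II to IV, 16 of ATP synthase, 39 of the large and 29 of the small ribosomal subunit were higher, with medians of 1.32, 1.09, 1.5, 1.03 and 1.24, against 0.15 for all genes.

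Ndufa3, an accessory subunit of complex I, was at 60.1, 55.7 and 117 FPKM in 10 day TAC, against 7.27, 14.1 and 6.61 FPKM in sedentary libraries (log2 change 2.91, SE 0.33, adjusted p = 2.38e-06). Atp5g2, a ring subunit of ATP synthase, was at 162, 149.7 and 231 FPKM in 10 day TAC, against 24.9, 40.5 and 22.6 FPKM in sedentary libraries (log2 change 2.61, SE 0.26, adjusted p = 1.26e-06). Atp5b, the catalytic beta subunit on a longer transcript, was at 86.7, 76.4 and 96.1 FPKM in 10 day TAC, against 46.6, 61.7 and 32.2 FPKM in sedentary libraries (log2 change 0.91, SE 0.19, adjusted p = 0.000633). The groups were separate in all 3. Ndufs1, the largest complex I subunit, was 1 of the 2 that were not called, with -0.07 (adjusted p = 0.645), and the other was Ndufa10, with 0.11 (adjusted p = 0.635). Rplp1, an acidic ribosomal stalk protein, was at 1198, 1309.8 and 1765 FPKM in 10 day TAC, against 269, 410.3 and 248 FPKM in sedentary libraries (log2 change 2.22, SE 0.24, adjusted p = 1.97e-06). Tpt1, a translationally controlled protein, was at 1239.9, 1619 and 1584 FPKM in 10 day TAC, against 497, 735 and 460.2 FPKM in sedentary libraries (log2 change 1.41, SE 0.18, adjusted p = 6.99e-06). Rps19-ps3, a listed pseudogene of a ribosomal protein gene, had 1.96 (adjusted p = 4.07e-06), and its reads cannot be told apart from those of its parent. Ndufs5, among the 15 largest rises, was at 4.73, 13 and 39.9 FPKM in 10 day TAC, against 0.000663, 0.000687 and 3.18 FPKM in sedentary libraries. Since it is listed at nearly 0 in sedentary replicates 1 and 2, no fold is given, and its call was lost without 10 day TAC replicate 2 or 3 and without sedentary replicate 1 or 2 (adjusted p = 0.0512 to 0.0998).

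Of 21 genes of glycolysis and glucose uptake 11 rose and 5 fell (median 0.72, length-corrected 0.32, with 7 higher and 3 lower). The glycolytic enzymes Gapdh and Ldha had 1.38 (adjusted p = 1.41e-05) and 1.24 (adjusted p = 9.51e-05). Hk2, the insulin-regulated hexokinase, was at 7.52, 5.52 and 3.52 FPKM in 10 day TAC, against 36, 26.8 and 22.3 FPKM in sedentary libraries (log2 change -2.19, SE 0.42, adjusted p = 0.000264). Of 24 genes of fatty acid uptake and oxidation 13 rose and 2 fell (median 0.50, length-corrected 0.30), and 4 fell without 10 day TAC replicate 1. Fabp4, a fatty acid binding protein of capillary endothelium and adipocytes, was at 281, 730.4 and 459 FPKM in 10 day TAC, against 62.6, 87.9 and 139.6 FPKM in sedentary libraries (log2 change 2.30, SE 0.42, adjusted p = 0.000181).

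Most cell cycle genes that could be tested were higher. Of 37, 20 were expressed enough to be tested, and 14 of these rose while none fell (median 0.62, length-corrected 0.61 with 13 higher). Cdk1, the mitotic kinase, was at 0.949, 1.66 and 1.77 FPKM in 10 day TAC, against 0.129, 0.111 and 0.133 FPKM in sedentary libraries (log2 change 1.11, SE 0.20, adjusted p = 0.000115), with every 10 day TAC library well above the sedentary ones at low FPKM. Testing required FPKM 1 in 2 or more fibroblast libraries of any group, which Cdk1 reached only outside the sedentary group. The counts of cell cycle genes that rose and fell therefore depend on that filter. Birc5 (survivin), Ube2c (a mitotic ubiquitin-conjugating enzyme) and Tk1 (thymidine kinase) had 1.44 (adjusted p = 6.11e-05), 1.42 (adjusted p = 5.94e-05) and 1.34 (adjusted p = 1.21e-05), and Pcna, the replication clamp, had -0.33 (adjusted p = 0.331). The other 17 members were too low to be tested, among them the usual proliferation markers. Mki67 was at 0.0549, 0.0275 and 0.143 FPKM in 10 day TAC, against 0.592, 0.101 and 0.751 FPKM in sedentary libraries, and Top2a at 0.173, 0.151 and 0.0682 FPKM in 10 day TAC, against 0.244, 0.112 and 0.298 FPKM in sedentary libraries. For Mki67 the 10 day TAC replicates 1 and 2 were below every sedentary library. The groups overlapped for both genes, as they did for the sum over the whole list, 118, 126 and 105 FPKM in 10 day TAC, against 106, 159 and 69.0 FPKM in sedentary libraries. Other untested members lay above every sedentary library. Aurkb was at 0.498, 0.492 and 0.591 FPKM in 10 day TAC, against 0.0466, 0.0466 and 0.0591 FPKM in sedentary libraries. Mcm2 was at 0.900, 0.944 and 0.846 FPKM in 10 day TAC, against 0.202, 0.239 and 0.355 FPKM. The untested members thus did not all move one way. Of 27 replication-dependent histone genes, whose mRNAs lack a poly-A tail, 26 rose (median 1.70, length-corrected 0.81 with 16 higher and 1 lower). Their list summed to 1202, 1287 and 1415 FPKM in 10 day TAC, against 795, 945 and 554 FPKM in sedentary fibroblasts. Rn45s was likewise higher in every 10 day TAC library, but spread more widely, at 911, 1798 and 6988 FPKM. Against 10 day swim 15 of the 27 were higher, while Rn45s was not called (adjusted p = 0.389). The part of RNA selection in these values was not tested. Lars2, a mitochondrial leucyl-tRNA synthetase, was the second largest rise, at 726, 1635 and 3189 FPKM in 10 day TAC, against 93.4, 193 and 42.4 FPKM in sedentary libraries (log2 change 4.07, SE 0.50, adjusted p = 6.64e-06). Lars2 followed Rn45s in rank among the 10 day TAC libraries but not among the sedentary ones. There replicate 3 was lowest for Lars2 and replicate 1 for Rn45s.

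Markers of the fibroblast itself were abundant in all 6 libraries, with sums of 2318, 2473 and 2098 FPKM over 12 markers in 10 day TAC, against 1902, 2022 and 1735 FPKM in sedentary fibroblasts, and 5 rose and 4 fell (median 0.13, length-corrected 0.39). Markers of other cell types were also present. The 22 cardiomyocyte markers summed to 835, 249 and 1059 FPKM in 10 day TAC, against 265, 476 and 82.0 FPKM in sedentary fibroblasts. Of the 20 tested 11 rose and none fell (median 1.20, length-corrected 0.67, with 7 higher and 1 lower), and for 3 of the 11 the groups were separate. The number that rose was 6 without 10 day TAC replicate 1 or 3 or without sedentary replicate 3, and without 10 day TAC replicate 1 or sedentary replicate 3 1 marker fell. Nppa, the atrial natriuretic peptide of stressed cardiomyocytes, was at 24.6, 8.22 and 57.2 FPKM in 10 day TAC, against 0.616, 3.61 and 0.773 FPKM in sedentary libraries (log2 change 3.34, SE 0.65, adjusted p = 0.00045). Tnnt2, a sarcomeric troponin, was at 16.6, 5.99 and 19.1 FPKM in 10 day TAC, against 5.67, 10 and 1.76 FPKM in sedentary libraries (log2 change 1.20, SE 0.51, adjusted p = 0.0492). Myh6, the main adult heavy chain, was at 11.2, 2.76 and 7.69 FPKM in 10 day TAC, against 10.4, 12.4 and 2.38 FPKM in sedentary libraries (log2 change -0.12, SE 0.54, adjusted p = 0.851). Nppa was thus higher in every 10 day TAC library while Tnnt2 and Myh6 overlapped, and Tnnt2 missed the threshold without 10 day TAC replicate 1 or 3 and without sedentary replicate 1 or 3 (adjusted p = 0.0741 to 0.237). The Tnnt2 call was also lost with no filter on low values (adjusted p = 0.0788), with only the 6 libraries compared (0.12), with sedentary and sham pooled (0.0837) and with sham in place of sedentary (0.449).

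The 20 endothelial markers summed to 713, 1507 and 995 FPKM in 10 day TAC, against 275, 332 and 394 FPKM in sedentary fibroblasts, with 10 higher and 2 lower (median 0.66, length-corrected 0.71, with 10 higher and none lower). Sox18, an endothelial transcription factor, was at 17.5, 38.8 and 26.6 FPKM in 10 day TAC, against 2.92, 2.58 and 6.06 FPKM in sedentary libraries (log2 change 2.56, SE 0.36, adjusted p = 1.63e-05). Pecam1, an adhesion molecule of endothelium, was at 11.9, 25 and 8.77 FPKM in 10 day TAC, against 11.7, 14.7 and 17 FPKM in sedentary libraries (log2 change -0.04, SE 0.36, adjusted p = 0.924), with overlapping groups. The 24 macrophage and monocyte markers summed to 2319, 1438 and 1454 FPKM in 10 day TAC, against 1135, 1354 and 1031 FPKM in sedentary fibroblasts, with 10 higher and 2 lower (median 0.29, length-corrected 0.24, with 8 higher and 4 lower). C1qa, a complement chain made by tissue macrophages, was at 330.4, 206 and 239.8 FPKM in 10 day TAC, against 53.5, 73.5 and 54 FPKM in sedentary libraries (log2 change 2.07, SE 0.28, adjusted p = 1.03e-05). Lyve1, of resident macrophages, had -1.67 (adjusted p = 0.000598). Ptprc, the pan-leukocyte CD45, was at 1.36, 0.694 and 0.377 FPKM in 10 day TAC, against 8.59, 5.97 and 3.58 FPKM in sedentary libraries (log2 change -1.93, SE 0.25, adjusted p = 6.82e-06). The macrophage sum was higher and Ptprc lower in every 10 day TAC library. FPKM summed over all genes was also higher in every 10 day TAC library, at 138408 to 155181, against 85128 to 119382 in sedentary libraries. No marker sum given here, for any cell type, is scaled to that total, so a higher sum need not be a larger share of the RNA measured. The number of macrophage markers that fell was 5 without 10 day TAC replicate 1 and 1 without 10 day TAC replicate 3 or sedentary replicate 1, and the number of endothelial markers that fell was 0 without 10 day TAC replicate 3 and 1 without 10 day TAC replicate 1 or sedentary replicate 3.

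Pericyte and smooth muscle markers (12 tested, 7 higher and 3 lower, or 5 and 1 after length correction) summed to 102, 105 and 97.2 FPKM in 10 day TAC, against 60.3, 76.2 and 56.5 FPKM in sedentary fibroblasts, and 1 fell without 10 day TAC replicate 1 or 3 or sedentary replicate 2. Granulocyte and mast cell markers summed to 9.26, 5.01 and 5.50 FPKM in 10 day TAC, against 8.97, 22.9 and 32.0 FPKM in sedentary fibroblasts, with none of 6 higher and 2 lower (1 without replicate 3 of either group), or 1 higher and 3 lower after length correction. None of the 18 lymphocyte markers reached the level for testing, and their sums were 2.73, 2.13 and 1.66 FPKM in 10 day TAC, against 1.22, 1.52 and 5.87 FPKM in sedentary fibroblasts. Red cell and platelet markers ran from 3185 to 6283 FPKM in 10 day TAC, against 87.7 to 8003 FPKM in sedentary fibroblasts, with no marker called (3 higher without sedentary replicate 3). No marker of these lists, or of the fibroblast, cardiomyocyte, endothelial and macrophage lists, was at 0 in all 6 libraries. The part of other cell types in the matrix, inflammatory and energy results was not tested.

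**Figure D4:**
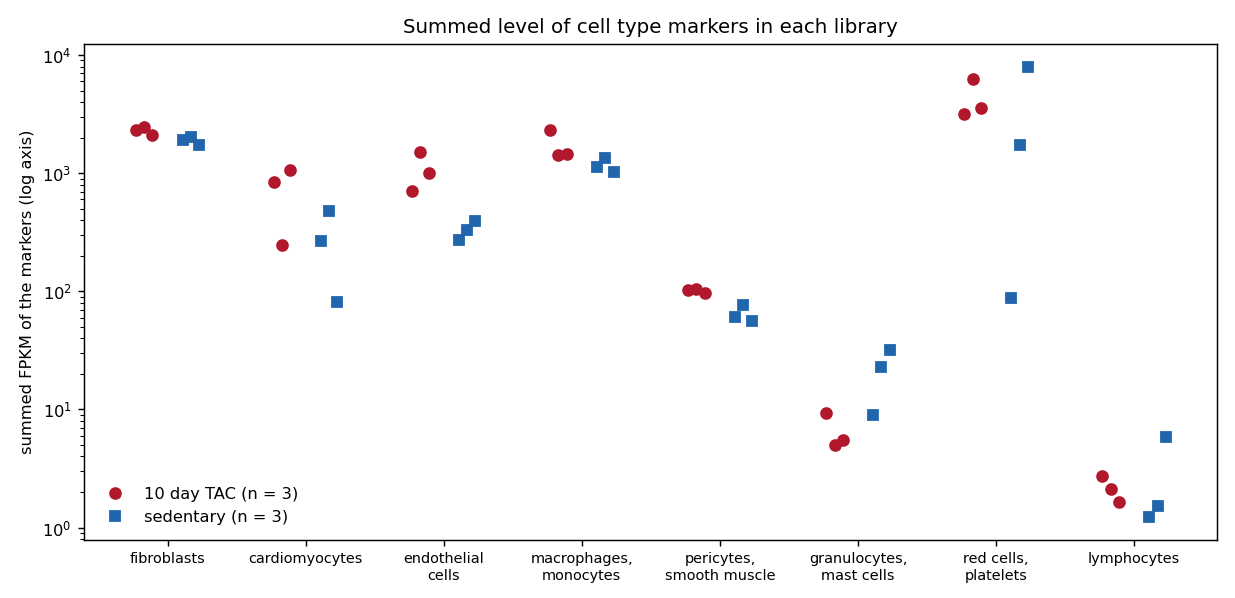
Summed FPKM of the markers of 8 cell types on a log axis in each 10 day TAC library (red circles) and each sedentary library (blue squares), n = 3 each, not scaled to the total FPKM of the library. Endothelial sums are 713 to 1507 FPKM in 10 day TAC and 275 to 394 FPKM in sedentary fibroblasts without overlap, while cardiomyocyte sums overlap and lymphocyte sums stay below 6 FPKM in all 6 libraries.

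The 10 day TAC libraries were also set against other fibroblast groups by direct tests in the same fit, which use no sedentary library in the contrast. Against 10 days of swimming, the exercise group of the same duration, 1248 genes (13.2%) were higher and 1031 (10.9%) lower in 10 day TAC. All 6 tested fibrillar collagens, 10 of 13 other collagens and 10 of 22 contractile genes (5 after length correction) were higher in 10 day TAC than after swimming. Of 18 elastic fibre genes 10 were higher and 4 lower (8 and 5 after length correction). Of 22 resting fibroblast genes 15 were lower and 1 higher. Of chemokines 11 of 21 were lower and 2 higher, and all 3 metallothioneins were lower. Of 46 large subunit ribosomal protein genes 3 were called, all lower, and of the 13 GTPases 1 was called, lower. Higher than after swimming were 8 of 37 complex I genes, 7 of 28 of complexes II to IV and 5 of 16 of ATP synthase, with none lower. Eln differed by 4.68 (adjusted p = 1.55e-07), Meox1 by 2.29 (adjusted p = 1.09e-06) and Mt2 by -3.53 (adjusted p = 3.02e-05) on the log2 scale.

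Against 3 days of TAC, 417 genes (4.42%) were higher and 205 (2.18%) lower at 10 days. The later libraries had higher Eln, 2.75 (adjusted p = 7.11e-05), Thbs4, 1.65 (adjusted p = 0.000614), Postn, 1.73 (adjusted p = 0.00688), and Meox1, 0.85 (adjusted p = 0.0111). Of 13 other collagens 7 were higher, as were 7 of 23 matricellular genes (with 2 lower) and 13 of 20 endothelial markers. For Col1a1 and Cthrc1 the values were 0.64 (adjusted p = 0.264) and 0.35 (adjusted p = 0.785). None of the 37 genes of complex I, 28 of complexes II to IV or 16 of ATP synthase was called between 10 and 3 days. Timp1 was lower at 10 days, -2.29 (adjusted p = 0.00563), and so were Mt2, -3.52 (adjusted p = 9.93e-05), and Mt1, -2.08 (adjusted p = 6.09e-05). Of chemokines 7 of 21 were lower at 10 days and none higher, and of 21 NF-kB factors and inhibitors 2 were lower. None of the 33 interferon-stimulated genes, 13 GTPases or 25 cytokines and receptors was called against 3 days of TAC.

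Against 5 days after MI, a group of 2 libraries, 2839 genes (30.1%) were higher and 2558 (27.1%) lower. Of fibrillar collagens 5 of 6 were lower in 10 day TAC than after MI and none higher. Of 23 collagen maturation genes 15 were lower and 3 higher, and of 22 contractile genes 14 were lower and 3 higher. Col1a1 differed by -1.76 (adjusted p = 0.000792), Postn by -2.85 (adjusted p = 3.27e-05) and Cthrc1 by -2.43 (adjusted p = 0.00638), whereas for Eln the difference was 0.69 (adjusted p = 0.109). Of complex I genes 34 of 37 were higher in 10 day TAC, and 34 were so after length correction too, against 24.7% of all genes.

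Levels over all groups placed these genes as follows. Eln was at 78.7 to 103 FPKM in 10 day TAC, 11.8 to 15.4 FPKM in 3 day TAC, 2.33 to 3.37 FPKM in 10 day swim, 7.2 to 10.9 FPKM in 4 day swim, 35.3 to 94 FPKM in 5 day MI, 1.63 to 4.12 FPKM in 3 day sham and 3.19 to 6.61 FPKM in sedentary fibroblasts. 10 day TAC and 5 day MI overlapped at the top, and 3 day TAC was next, above all libraries of the other groups. For Postn and Cthrc1 the sham libraries were themselves above every sedentary library. Postn was at 11.3 to 34.4 FPKM in 3 day sham, 13 to 18.4 FPKM in 3 day TAC and 4.44 to 9.68 FPKM in sedentary fibroblasts. Cthrc1 was at 1.3 to 5.14 FPKM in 3 day sham and 0.107 to 0.237 FPKM in sedentary fibroblasts. All 10 day TAC libraries lay above the sham libraries for both genes. Mt2 was at 40.4 to 56 FPKM in 10 day TAC, 383 to 721 FPKM in 3 day TAC, 409 to 619.5 FPKM in 10 day swim, 88.9 to 357 FPKM in 4 day swim, 138 to 166 FPKM in 5 day MI, 298 to 556 FPKM in 3 day sham and 174 to 341 FPKM in sedentary fibroblasts. The lowest library outside 10 day TAC was thus a 4 day swim library. Ifi204 was at 3.11 to 8.91 FPKM in 10 day TAC, 10.1 to 35.7 FPKM in 3 day TAC, 27.7 to 85.5 FPKM in 10 day swim, 9.61 to 36 FPKM in 4 day swim, 61.7 to 80 FPKM in 5 day MI, 164 to 285 FPKM in 3 day sham and 86.7 to 205 FPKM in sedentary fibroblasts. Its neighbours above 10 day TAC, 4 day swim and 3 day TAC, overlapped each other, and sham and sedentary libraries were the highest. Over all genes tested, all libraries of 10 day TAC were above all other 16 fibroblast libraries for 277 genes and below them for 66, and among the 30 largest changes Cxcl5, Ifi204 and Ifi205 were below all others and none was above.

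**Figure D5:**
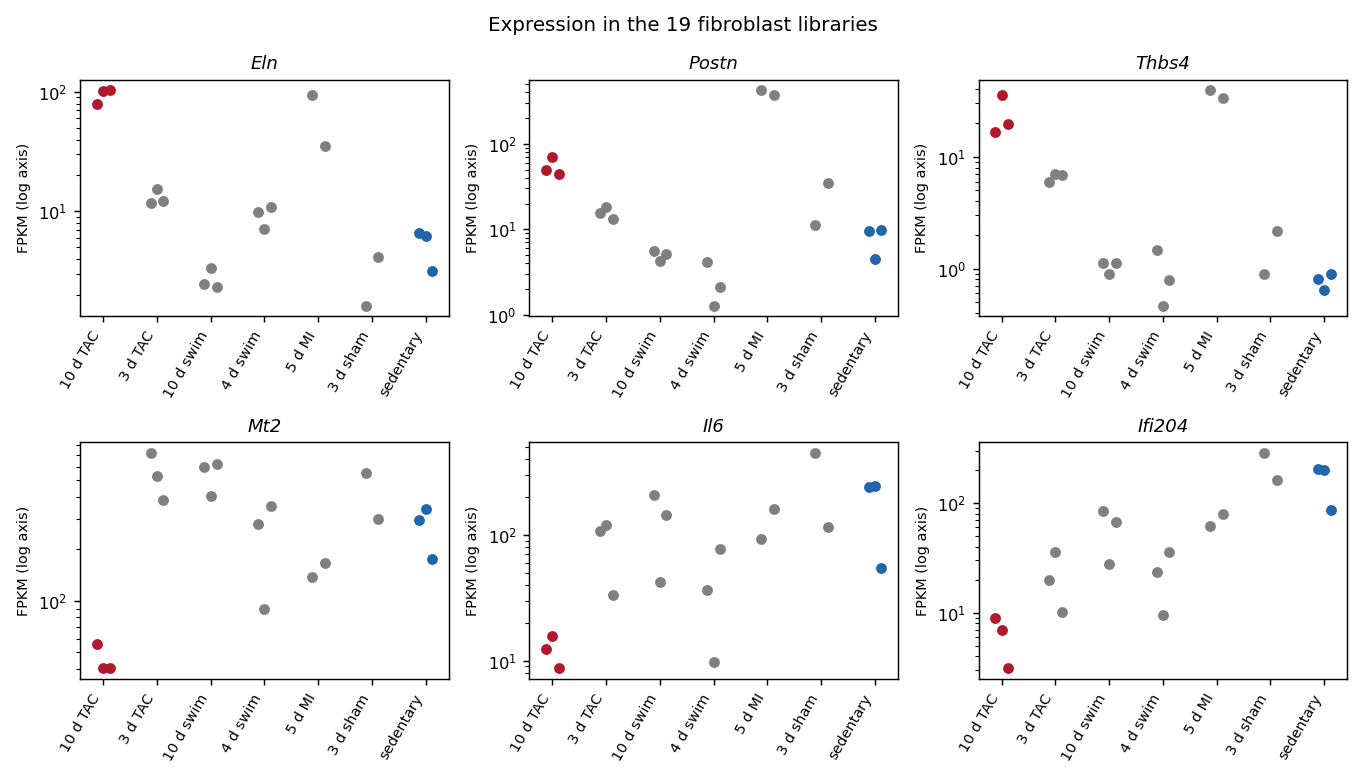
FPKM on a log axis in each of the 19 fibroblast libraries by group, with 10 day TAC in red, sedentary in blue and the other groups in grey, for Eln, Postn, Thbs4, Mt2, Il6 and Ifi204. Eln is at 78.7 to 103 FPKM in 10 day TAC and 3.19 to 6.61 FPKM in sedentary fibroblasts, Postn and Thbs4 reach their highest levels after MI, and Mt2 and Ifi204 are lowest in 10 day TAC.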

How the data were processed

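Poly-A RNA was made into stranded libraries, per the labels' protocols. The deposited table holds FPKM per gene and library, computed by the authors with Cufflinks 2.0.2 on mm10, per the submitters' processing notes. Neither the aligner nor the annotation behind them is named in the sources used. In addition, the authors' deposited table of comparisons gives significance by q-value (adjusted p-value) and direction by the sign of its log2 fold change; it was used only as an alternative, and it names its control for this comparison as a swim control, so its match to these sedentary libraries is uncertain. The 44 columns of confidence bounds were not used.

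Here limma 3.58.1 in R 4.3.3, with intensity trend and robust variance, was run on log2(FPKM + 1), with a mean for each of 7 groups over the 19 fibroblast libraries, which share 1 estimate of spread. Of 23359 genes, the 9425 that reached an FPKM of 1 in 2 or more libraries were kept. Benjamini-Hochberg adjustment ran over all of them, with a threshold of 0.05. These log2 values were computed from the deposited FPKM. FPKM holds no counts, so no count test was run. Length and GC content came from the longest GENCODE M21 transcript, known for 9346 tested genes, and were removed per library with natural splines of 4 degrees of freedom each. Promoter windows came from RefSeq on GRCm38.p6, with windows for 6881 tested genes. Tables were handled in Python 3.11.15 with pandas 2.3.3, and plots made with matplotlib 3.10.9.

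Genes were named by a rule: among called genes whose groups did not overlap and whose higher group averaged FPKM 5 or more, the 15 that rose most and the 15 that fell most; up to 6 changed and up to 3 best known members of each list; a fixed set of 24 genes; and the 5 most abundant genes called in each direction. Predicted and small RNA genes were left out. Some genes of the lists were counted but are not reported here by name. The members, lists and rule were chosen with earlier results of these data known. Alternatives changed the pseudocount, filter, libraries in the fit, scaling, length correction and control group, or left out each library in turn. Samples were grouped by their condition labels.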

Additional observations from a re-analysis of the deposited data

Results flagged for a closer look

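Changes after 10 days of TAC and after 10 days of swimming are both read against the same 3 sedentary libraries. The difference between them was tested directly, with limma between the 3 TAC and the 3 swim libraries and adjustment over all 9425 genes. Over all genes tested, 1248 (13.2%) were higher and 1031 (10.9%) lower in 10 day TAC. The 24 always named genes were chosen with earlier results of these data known, so their count is not a result about the groups. Of these 24 genes, 18 differed between the groups, which is why those 18 are listed here.

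Of these, 10 were higher after TAC. Eln differed by 4.68 log2 units (94.6 FPKM in 10 day TAC, against 2.73 FPKM in 10 day swim, adjusted p = 1.55e-07) and Cthrc1 by 4.12 (34.9 FPKM in 10 day TAC, against 0.318 FPKM in 10 day swim, adjusted p = 0.000286). Postn differed by 3.21 (adjusted p = 1.46e-05), Col1a1 by 2.90 (adjusted p = 1.74e-05), Col3a1 by 2.73 (adjusted p = 6.79e-05), Timp1 by 2.40 (adjusted p = 0.00158), Meox1 by 2.29 (adjusted p = 1.09e-06), Tagln by 1.87 (adjusted p = 0.00248) and Acta2 by 1.62 (adjusted p = 0.00798). Nppa, the natriuretic peptide of cardiomyocytes, differed by 3.84 (30.0 FPKM in 10 day TAC, against 0.807 FPKM in 10 day swim, adjusted p = 0.00105).

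The other 8 were lower after TAC. Tcf21 differed by -1.18 (20.3 FPKM in 10 day TAC, against 47.2 FPKM in 10 day swim, adjusted p = 0.0281), Pdgfra by -0.90 (adjusted p = 0.0224) and Ptprc by -0.89 (adjusted p = 0.0168; length-corrected -0.56, adjusted p = 0.0834). Mt2 differed by -3.53 (45.7 FPKM in 10 day TAC, against 542 FPKM in 10 day swim, adjusted p = 3.02e-05), Mt1 by -2.27 (adjusted p = 8.16e-06) and Hmox1 by -2.06 (adjusted p = 0.0297). Ifit1 differed by -3.70 (adjusted p = 0.0132) and Il6 by -3.09 (12.2 FPKM in 10 day TAC, against 132 FPKM in 10 day swim, adjusted p = 0.0175), while for Ccl5 the difference was -0.73 (adjusted p = 0.304).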

How the results depend on the processing

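The 3654 higher and 2541 lower calls held within 1.5 times under most settings. With a filter of FPKM 5 they were 1967 and 986 (2953 in all), since fewer genes were tested, and with no filter 3894 were lower. With the length and GC trend removed the total was 5226, with sham in place of sedentary 6047, and 5475 genes were significant in the authors' deposited table (3386 higher, 2089 lower), 4377 of them called the same way here and none the opposite way. Leaving out single libraries gave 5318 to 6144 calls, 3269 to 3777 higher and 1914 to 2807 lower. The correlation of fold change with length was -0.327 with the median in place of the longest transcript, and -0.537 to -0.487 without single libraries; the cause was not tested. Of 55 genes recomputed (the largest changes, the fixed set and the most abundant), 46 kept their direction and side of the threshold under each setting that gave them a value and none reversed, while other named genes were recomputed only in their list counts; Acta2, Timp1, Pdgfra, Tnnt2, Dcn, Fth1, Ccl2, Nqo1 and Ndufs5 changed side under at least 1. Acta2 was at 0.81 (adjusted p = 0.113) against sham, Tnnt2 at 0.51 (adjusted p = 0.449) against sham, and Dcn at -0.24 (adjusted p = 0.401) after length correction. No paired analysis was possible because the sample titles of the groups compared share only 1 number, 2, and no title says that it marks a pair. FPKM carries no counts, so counting intervals could not be given.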

Other observations

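Some large changes stood outside the gene groups described. C1qtnf6, a secreted protein of the C1q and TNF-related family, was at 23.1, 30 and 35.2 FPKM in 10 day TAC, against 2.39, 1.96 and 2.28 FPKM in sedentary libraries (log2 change 3.23, SE 0.21, adjusted p = 9.36e-08). Mtch1, a mitochondrial carrier homologue, was at 55.6, 65.9 and 94.5 FPKM in 10 day TAC, against 8.23, 9.88 and 8.96 FPKM in sedentary libraries (log2 change 2.83, SE 0.25, adjusted p = 9.36e-07). Grcc10 was at 74.7, 93.3 and 113 FPKM in 10 day TAC, against 11.1, 15.2 and 11.2 FPKM in sedentary libraries (log2 change 2.80, SE 0.25, adjusted p = 9.36e-07). Tmem160, a transmembrane protein, was at 19.2, 19.5 and 36.7 FPKM in 10 day TAC, against 2.31, 3.12 and 2.51 FPKM in sedentary libraries (log2 change 2.78, SE 0.31, adjusted p = 2.25e-06). Lsmd1 was at 17.2, 23.6 and 30.4 FPKM in 10 day TAC, against 2.19, 2.87 and 2.51 FPKM in sedentary libraries (log2 change 2.78, SE 0.25, adjusted p = 9.36e-07). The groups did not overlap for any of these genes. Among abundant genes that fell, Fth1, the ferritin heavy chain, was at 484, 389.8 and 388 FPKM in 10 day TAC, against 585, 1105 and 416 FPKM in sedentary libraries (log2 change -0.63, SE 0.25, adjusted p = 0.0355). Its adjusted p was 0.24 without sedentary replicate 2, 0.0916 without 10 day TAC replicate 2 and 0.0971 without 10 day TAC replicate 3.

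The endothelial and hematopoietic markers did not move as whole lists. Gpihbp1, the capillary anchor of lipoprotein lipase, changed by 2.33 (adjusted p = 4.61e-05) on the log2 scale, while Vwf (von Willebrand factor) had -0.96 (adjusted p = 0.0167) and Tek (the angiopoietin receptor) -0.73 (adjusted p = 0.0089). Among macrophage genes, Tyrobp, a signalling adaptor, and Aif1 had 1.82 (adjusted p = 0.000156) and 1.88 (adjusted p = 2.38e-06), whereas Mrc1, the mannose receptor, had -0.98 (adjusted p = 0.0222).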
